A study of Mus musculus with 13 samples.

Results

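The Cd36 locus was described through every peak of the deposited ATAC-seq table whose nearest annotated gene is Cd36, which came to 3 of 38620 peaks. ATAC-seq uses a transposase that inserts sequencing adapters into open chromatin, so the count of a peak is a measure of accessibility. The locus was chosen by its fold changes between the groups given BLZ945 and the groups given vehicle, so those differences are given here as a description, with no test. Tests were made for the effect of LPS within each arm, a contrast that the choice did not use, although it used the same libraries. The rise of Cd36 in PBL against PBP was also known when the locus was chosen, so its p-values are not independent evidence.

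CD36 is a class B scavenger receptor, a membrane glycoprotein that binds long-chain fatty acids, oxidised lipoproteins, thrombospondin and, in microglia, fibrillar amyloid beta. In macrophages its transcription is raised by the lipid-sensing nuclear receptor PPARγ with its partner RXR, and the protein signals together with Toll-like receptors and Src-family kinases. CD36 is also made by monocytes, platelets, adipocytes and capillary endothelium, so markers of other cells that a brain sort could hold are given beside the results.

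The cells were microglia, the resident macrophages of the brain, sorted as CD11b high, CD45 intermediate and Ly6c negative from male C57BL/6J mice, which were 15 weeks old at collection. All mice were injected intraperitoneally at 10 weeks of age and gavaged on 5 days from a week later. They were injected again 5 weeks after the first time, and tissue was taken 3 hours after that. The injections held 1 mg/kg LPS (lipopolysaccharide of Gram-negative bacteria, sensed by TLR4) or saline (PBS), and the gavage held BLZ945 at 169 mg/kg per day or its cyclodextrin vehicle. BLZ945 blocks CSF1R, on which microglia depend for survival, so these groups hold the cells found in the microglial gate after depletion and refilling, and the labels do not trace their origin.

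Groups are named by the order of treatments, with P for PBS, B for BLZ945 and L for LPS. PBP received PBS, BLZ945 and PBS, PBL received PBS, BLZ945 and LPS, and LBL received LPS, BLZ945 and LPS. Their vehicle counterparts were PP (PBS and PBS), PL (PBS and LPS) and LL (LPS and LPS). PBL had 3 libraries and the other groups had 2 each, and each library pooled 40000 cells from each of 2 animals. The PBL pools 3_4 and 4_5 both carry the number 4 in their names, and the labels do not say whether an animal is in both.

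Library totals ran from 927840 rounded counts in PP 1_2 to 2772688 in PBL 4_5, so that a single count was worth 1.05 CPM (counts scaled to the size and composition of each library) in PP 1_2 and 0.367 CPM in PBL 4_5. The sorter was an Astrios for PBP, PP and PL, and an XDP for PBL, LBL and LL. The PL pools came from different isolation days, PL 1_2 from that of PBP and PL 3_4 from that of PP, and PBL, LBL and LL each had a day of their own. The PL pools also differed most among replicates, with a chi-square per degree of freedom of 1.84, against 0.978 to 1.15 for replicate pools of the other groups. Microglial identity genes were open in every group, with 9 of 10 fixed markers (all but Fcrls, which had no row) carrying peaks and their summed level between 1380 and 1979 CPM in all 13 libraries.

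The 3 peaks lay on chromosome 5 of mouse build GRCm38/mm10, where Cd36 is read from the minus strand and spans 17781690 to 17888959 in the RefSeq annotation of that build. A pair of them lay in the first intron of a long Cd36 transcript, upstream of the start site of a shorter one to which the deposited annotation measures its distances. The nearer intron peak, 547 bp wide at chr5:17854438-17854984, lay 4646 bp upstream of that start site. The farther intron peak, 276 bp wide at chr5:17857325-17857600, lay 7533 bp upstream of it, and 2340 bp separated both peaks. The third peak, 137 bp wide at chr5:17776690-17776826, was intergenic and lay beyond the 3′ end of the gene, 58870 bp from the start site of another Cd36 transcript. No Cd36 peak was annotated as a promoter peak, and the nearest one was 18292 bp from the promoter window of the RefSeq promoter table (chr5:17835847-17836146).

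**Figure D1:**
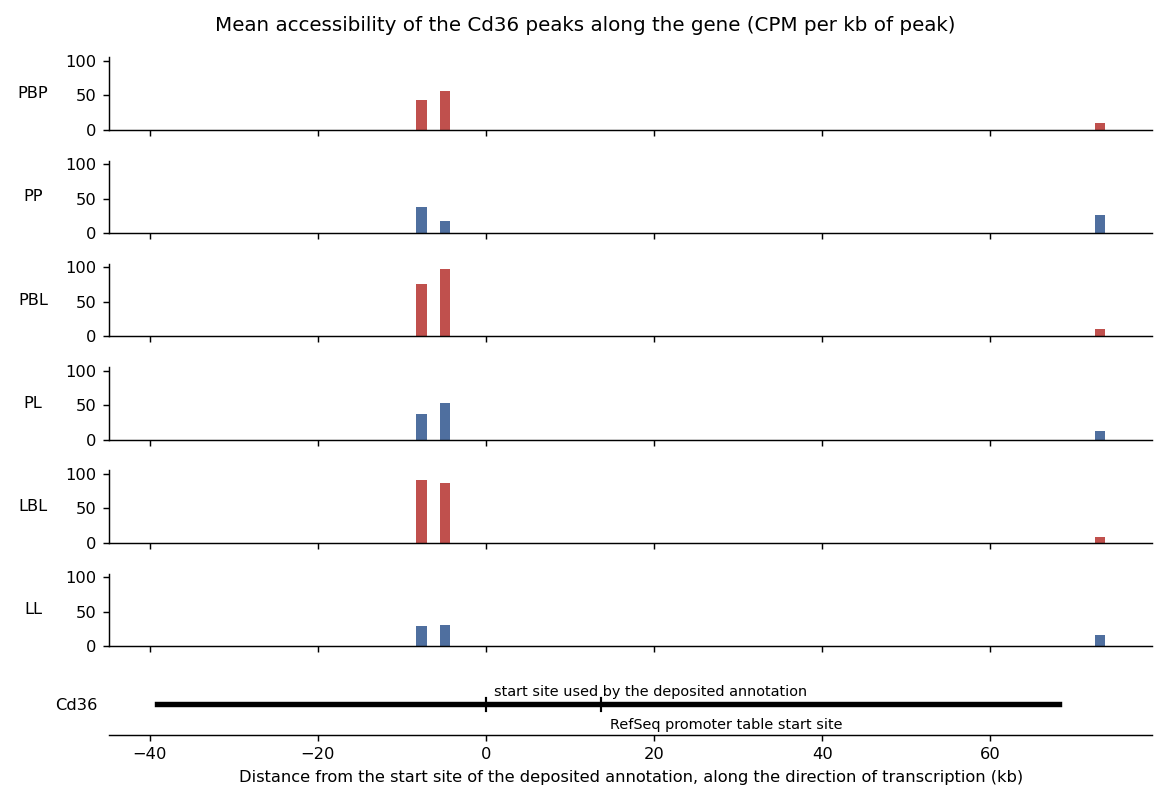
Mean accessibility of the 3 Cd36 peaks in each group, in CPM per kb of peak width (y axis), against the distance from the start site used by the deposited annotation in kb along the direction of transcription (x axis); bars are drawn wider than the peaks. The black line is the RefSeq gene span. Marks on it show the start site used by the deposited annotation and that of the RefSeq promoter table. The nearer intron peak reached 97.5 CPM per kb in PBL and 17.9 in PP, while the intergenic peak stayed at or below 26.1 in every group.

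Per kb of peak, the nearer intron peak ranged over the 6 groups almost from the bottom to the top of all tested peaks. Its mean level was 55.9 CPM per kb in PBP, above 72.3% of the 37516 tested peaks, and 17.9 CPM per kb in PP, above 4.71% of them. In PBL it was above 94.5% of peaks and in PL above 68.1%. In LBL it was above 91.7% and in LL above 28.2%. The farther intron peak was above 54.1% of peaks in PBP and 41.6% in PP, above 87.3% in PBL and 42.7% in PL, and above 92.8% in LBL and 24.4% in LL. Both intron peaks thus stood well above the median tested peak, of 40.5 and 41.7 CPM per kb, in the PBL and LBL groups, which had been repopulated and given LPS.

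Without any LPS, repopulated microglia had a more open nearer intron peak than microglia that were never depleted. It had 31.7 and 29.4 CPM in the PBP pools, from deposited counts of 51.5 and 39, against 12.6 and 6.99 CPM in the PP pools, from counts of 12.5 and 7. Every PBP pool lay above both PP pools, and PP was the lowest of the 6 groups at this peak. The level was 3.14-fold higher in PBP (log2 1.65 ± 0.34 SE). This value depended on the PP pool used, at log2 1.26 without PP 3_4 and 2.12 without PP 1_2. PBP and PP came from different days. With a day term, which takes the day difference from the PL pools, the nearer peak was at log2 2.41 ± 0.45 (SE). The farther intron peak differed little between these groups, at 12.2 and 11.3 CPM in PBP and 10.5 and 9.98 CPM in PP (log2 0.20 ± 0.40 SE). The pools again did not overlap, but the gap was smaller than the value of a single count in the PP libraries.

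After a first LPS injection both intron peaks were more open in the repopulated cells. The nearer peak had 50.6, 58.8 and 50.6 CPM in the PBL pools, against 21.3 and 36.2 CPM in the PL pools. The lowest PBL pool stood above the higher PL pool, with a 1.83-fold difference of group levels (log2 0.87 ± 0.18 SE). The farther peak had 22.5, 20.4 and 20.5 CPM in PBL, against 10.1 and 10.7 CPM in PL. Here the pools of each group lay close together, and the level was 2.01-fold higher in PBL (log2 1.01 ± 0.26 SE). For the nearer peak the value rested on which PL pool was used, at log2 0.54 without PL 1_2 and 1.31 without PL 3_4. PBL and PL were sorted on different instruments, so instrument and treatment cannot be told apart in this comparison.

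In mice that had received LPS at both injections the difference was largest for the farther peak among the 3 states. It had 26.6 and 23.4 CPM in LBL, against 7.99 and 8.05 CPM in LL, a 3.08-fold difference (log2 1.62 ± 0.28 SE). The nearer peak had 48.7 and 46.2 CPM in LBL, against 16 and 17.7 CPM in LL, a 2.79-fold difference (log2 1.48 ± 0.22 SE). Replicate pools agreed closely in both groups, and all 4 libraries were sorted on the XDP instrument, although on a day of its own for each group.

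**Figure D2:**
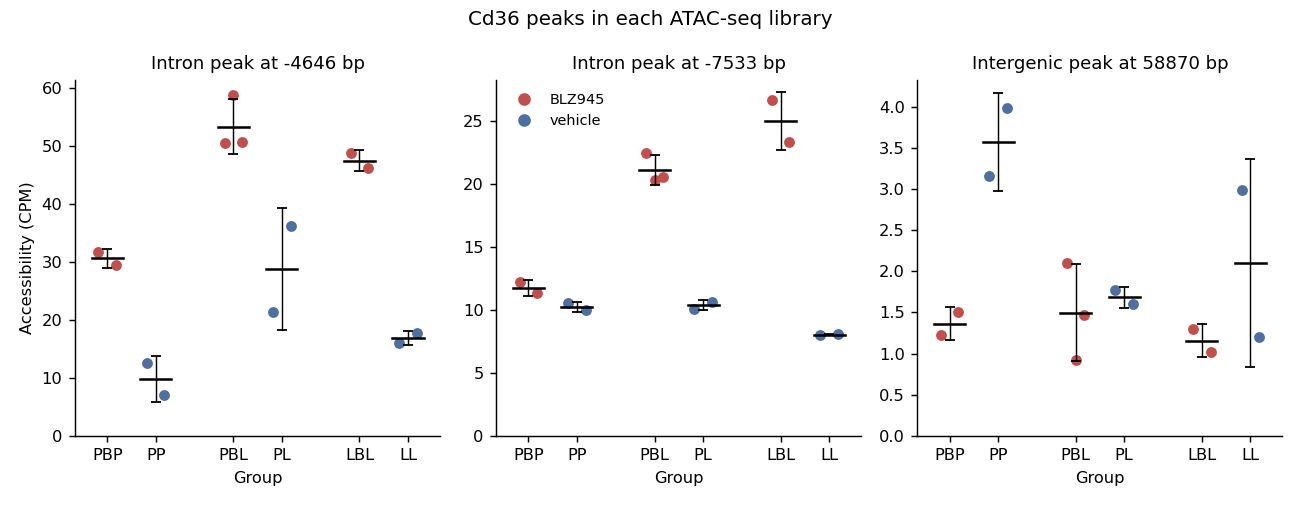
Accessibility in CPM (y axis) of the 3 Cd36 peaks in each of the 13 libraries by group (x axis), with BLZ945 groups in red and vehicle groups in blue; each point is a pool of 2 animals, lines are group means and bars the SD. Both intron peaks sit higher in the BLZ945 group of each pair, while the farther one separates clearly only in the pairs that received LPS, at 20.4 to 26.6 CPM in PBL and LBL.

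The intergenic peak did not share this pattern. It held between 1.5 and 5.5 deposited counts per library, and the filter on low counts removed it. Its mean level was 1.36 ± 0.20 CPM in PBP and 3.57 ± 0.59 CPM in PP, 1.5 ± 0.59 in PBL (n = 3) and 1.69 ± 0.13 in PL, and 1.16 ± 0.20 in LBL and 2.1 ± 1.26 in LL (SD, n = 2 elsewhere). PBP was below PP without overlap, as were 20% of tested peaks, and the pools of the other pairs overlapped. At this depth a difference of a few counts decides these values. Without the filter it was not called in any of the 4 LPS comparisons, with log2 values of 0.07 ± 0.84 (SE) in PBL against PBP and -1.06 ± 0.80 in PL against PP (edgeR adjusted p of 0.978 and 0.479), and of -0.31 ± 0.83 in LBL against PBL and 0.24 ± 0.75 in LL against PL (0.918 and 0.976).

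In each of the 3 comparisons of BLZ945 with vehicle, 2 of the 3 Cd36 peaks were higher without overlap between pools. That held for 21% of all tested peaks in PBP against PP, for 12.3% in PBL against PL and for 20.4% in LBL against LL, and for 0.744% of tested peaks in all 3 at once. By size of the log2 fold change the nearer intron peak was number 31 of 37516 in PBP against PP, number 247 in PBL against PL and number 30 in LBL against LL. The farther one was number 10687, 133 and 18 in the same order of comparisons. As the locus was chosen for these differences, the ranks only place it.

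Summed over its peaks, the Cd36 locus had 42.99 ± 1.26 CPM in PBP (SD, n = 2) and 23.4 ± 3.93 CPM in PP (n = 2), 74.9 ± 4.21 CPM in PBL (n = 3) and 41.5 ± 12.2 CPM in PL (n = 2), and 74.2 ± 4.54 CPM in LBL (n = 2) and 27.4 ± 0.072 CPM in LL (n = 2). The fold differences were 1.85 for PBP over PP, 1.79 for PBL over PL and 2.70 for LBL over LL. From high to low the groups ran PBL, LBL, PBP, PL, LL and PP. PBL and LBL overlapped, as did PBP and PL. LL and PP did not, although their means were only 3.98 CPM apart against an SD of 3.93 CPM in PP.

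In microglia that were never depleted the nearer intron peak was more open after a first LPS injection, with no change detected at the farther one. The nearer peak rose to 21.3 and 36.2 CPM in PL, against 12.6 and 6.99 CPM in PP, by 2.98-fold (log2 1.57 ± 0.34 SE; edgeR quasi-likelihood test, Benjamini-Hochberg adjusted p = 0.000571), and it was higher in 2 of 2 PL pools, where 25.1% of tested peaks were higher without overlap. At the farther peak the pools overlapped, at 10.1 and 10.7 CPM in PL and 10.5 and 9.98 CPM in PP (log2 0.02 ± 0.40 SE, edgeR adjusted p = 0.986). Thus 1 of the 2 tested Cd36 peaks was called higher, where 4.77% of all tested peaks were; PL and PP are also libraries by which the locus was chosen. The locus sum rose 1.79-fold (log2 0.84 ± 0.24 SE, edgeR adjusted p = 0.0149), in a comparison that called 6.94% of loci higher.

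This rise rested on single pools. Without PL 3_4 the nearer peak was at log2 1.12 (edgeR adjusted p = 0.148), and without PP 3_4 at 1.18 (0.105). With PL 3_4 alone, which was isolated on the same day as PP, it was at 1.89 (edgeR adjusted p = 9.36e-06). The call of the locus sum was lost without PL 3_4, PP 1_2 or PP 3_4 (edgeR adjusted p of 0.427, 0.0578 and 0.203) and under DESeq2 (adjusted p = 0.071).

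In repopulated microglia both intron peaks were more open with a first LPS injection (PBL) than without LPS (PBP), by a similar factor. These groups also differed in instrument and day. The nearer peak had 50.6, 58.8 and 50.6 CPM in PBL, against 31.7 and 29.4 CPM in PBP, a 1.74-fold rise (log2 0.80 ± 0.19 SE, edgeR adjusted p = 0.00107) seen in 3 of 3 PBL pools. The farther peak had 22.5, 20.4 and 20.5 CPM in PBL, against 12.2 and 11.3 CPM in PBP, a 1.77-fold rise (log2 0.82 ± 0.27 SE, edgeR adjusted p = 0.0296), again in 3 of 3 pools, where 20% of tested peaks were higher without overlap. Both tested peaks were called higher, where 6.74% of all tested peaks were, but this outcome was known beforehand and PBL and PBP entered the choice of the locus, so nothing is read from that share. The locus sum rose 1.73-fold (log2 0.79 ± 0.15 SE, edgeR adjusted p = 0.000114), where 5.42% of loci were called higher.

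The call of the farther peak was lost without any 1 of the 5 pools, with log2 values of 0.77 to 0.87 and edgeR adjusted p of 0.0507 to 0.204. DESeq2 called neither intron peak, with adjusted p of 0.0507 for the nearer and 0.259 for the farther one. PBL and PBP were sorted on different instruments and days, so these cannot be told apart from LPS.

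**Figure D3:**
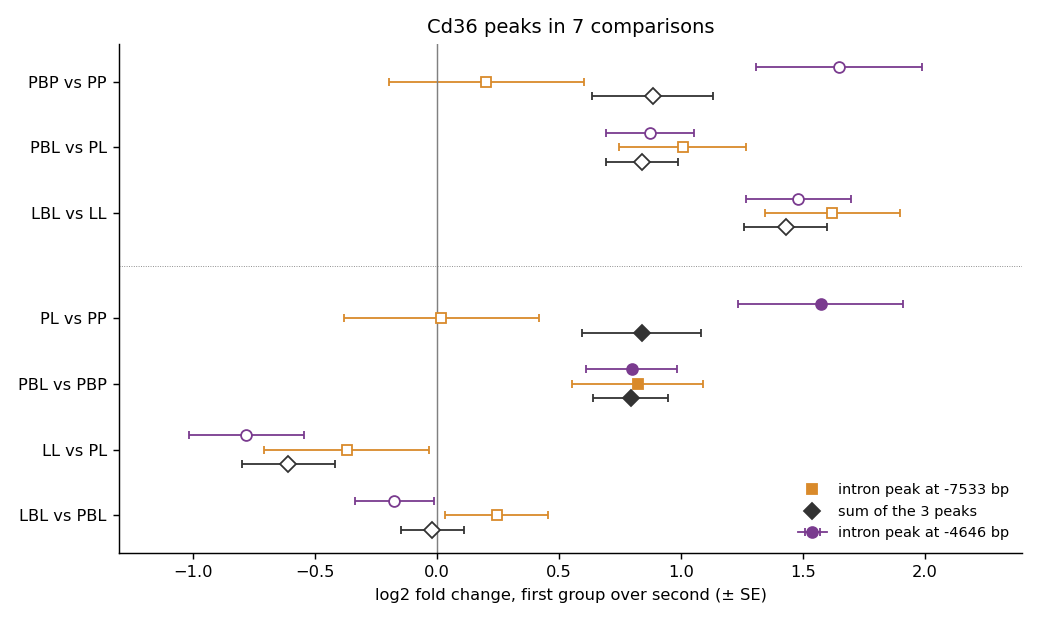
Log2 fold change with its SE (x axis) of the nearer intron peak (circles, -4646 bp), the farther intron peak (squares, -7533 bp) and the sum of the 3 Cd36 peaks (diamonds) in 7 comparisons (y axis), each of the first group over the second. The 3 comparisons above the dotted line chose the locus and carry no test; below it, filled symbols passed an edgeR adjusted p of 0.05. The farther peak sits at 0.82 in PBL vs PBP and at 0.02 in PL vs PP.

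Set side by side, the responses to a first LPS injection were log2 0.80 in the BLZ945 arm and 1.57 in the vehicle arm at the nearer peak. At the farther peak they were 0.82 in the BLZ945 arm and 0.02 in the vehicle arm. The difference of BLZ945 arm minus vehicle arm was -0.77 ± 0.40 (SE) at the nearer peak, 0.80 ± 0.49 at the farther one and -0.05 ± 0.29 for the locus sum. These differences equal those between the BLZ945 effects by which the locus was chosen, and were not tested. PBL and PBP differed in instrument and day, while PL and PP shared an instrument and PL 3_4 the day of PP. Instrument and day therefore cannot be told apart from a difference between arms.

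LPS at both injections was then compared with LPS at the last one only. In repopulated cells the locus was nearly level, and in never depleted cells it was lower by values that did not pass the test. LL and PL were sorted on different instruments and days, so these cannot be told apart from the earlier LPS injection. The nearer peak had 16 and 17.7 CPM in LL, against 21.3 and 36.2 CPM in PL, with no overlap (log2 -0.78 ± 0.24 SE, edgeR adjusted p = 0.217). Of all tested peaks 16.4% were lower without overlap. The farther peak had 7.99 and 8.05 CPM in LL, against 10.1 and 10.7 CPM in PL (log2 -0.37 ± 0.34 SE, adjusted p = 0.855). None of the 2 was called by edgeR, limma-trend or DESeq2, 1 had an unadjusted edgeR p under 0.05, and 0.0506% of all tested peaks were called lower. Without PL 1_2 the nearer peak was called (log2 -1.11, edgeR adjusted p = 0.00989), and without PL 3_4 it was at -0.34 (adjusted p = 0.80).

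In the repopulated arm the nearer peak had 48.7 and 46.2 CPM in LBL, against 50.6, 58.8 and 50.6 CPM in PBL (log2 -0.17 ± 0.16 SE, edgeR adjusted p = 0.702). The farther peak had 26.6 and 23.4 CPM in LBL, against 22.5, 20.4 and 20.5 CPM in PBL (log2 0.25 ± 0.21 SE, adjusted p = 0.666). The pools did not overlap at either peak, and the directions were opposite, where 16.8% of tested peaks were higher and 15.8% lower without overlap. None of the 2 was called by edgeR, limma-trend or DESeq2, and none had an unadjusted edgeR p under 0.05, where 1.9% of all tested peaks were called in either direction. The locus sum was at log2 -0.02 ± 0.13 SE (edgeR adjusted p = 0.978). The change of LBL over PBL minus that of LL over PL was 0.59 ± 0.23 (SE) for the locus sum, again a value with no test. LBL and PBL shared an instrument and LL and PL did not, so instrument and arm cannot be told apart in it.

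The nearer peak took its lowest share of the pair in resting, never depleted cells. The nearer peak held 72.2% of the rounded counts of the pair in both PBP pools, against 54.5% (exact 95% interval 32.2 to 75.6) in PP 1_2 and 41.2% (18.4 to 67.1) in PP 3_4. Across the 9 libraries that received LPS it held 64.7% to 77.3%. The PP shares are the lowest of the 13, and they come from 22 and 17 counts, so their intervals, which cover counting error only, reach those of other libraries. Over the 13 libraries the log2 levels of both peaks had a Pearson's r of 0.79 and a Spearman's rho of 0.82, as a description, since they share libraries, depth and treatments.

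Genes that act with CD36 were counted from 4 lists, of which 76 loci had enough counts to be tested, each locus being the sum of all peaks assigned to the gene. Of these 76, none was called in PBP against PP by edgeR (9 had an unadjusted p under 0.05, DESeq2 called none and limma-trend 1), where 0.242% of all loci were called. In PBL against PL 1 was called by edgeR and none by DESeq2 or limma-trend (14 with an unadjusted edgeR p under 0.05), where 0.406% of all loci were, and in LBL against LL none by edgeR, DESeq2 or limma-trend (9 with an unadjusted edgeR p under 0.05), where 0.0855% of all loci were. The single call was Msr1, the class A scavenger receptor, which was 1.4-fold lower in PBL than in PL (log2 -0.47 ± 0.11 SE, edgeR adjusted p = 0.0402). The medians of the 76 loci were log2 -0.01, -0.02 and -0.02 in these comparisons, with medians over all loci of -0.0026, 0.0016 and 0.00056.

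The highest listed member reached log2 0.65 in PBP against PP (Acsl3, which activates fatty acids), 0.46 in PBL against PL (Cebpb, a transcription factor of macrophages) and 0.45 in LBL against LL (Megf10, a phagocytic receptor), none of them called. The Cd36 locus was at 0.89, 0.84 and 1.43 in the same comparisons. That it lies above each listed member follows from its choice by these fold changes, and only places it.

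**Figure D4:**
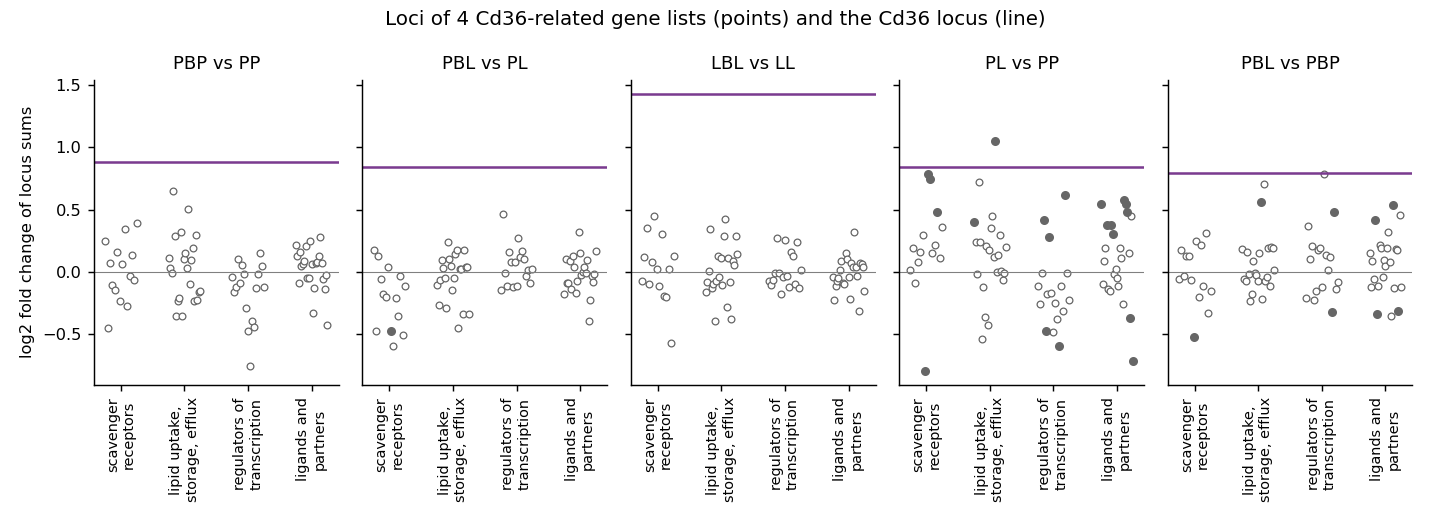
Log2 fold change (y axis) of the tested loci of 4 gene lists (points, x axis by list) in 5 comparisons, with the Cd36 locus as a purple line; filled points passed an edgeR adjusted p of 0.05 in that comparison. In the 3 panels of BLZ945 against vehicle the Cd36 line lies above all points, as it was chosen by those fold changes, and 1 point, Msr1 in PBL vs PL, is filled.

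More of these loci were called in the comparisons of a first LPS injection with none. In PL against PP 15 of the 76 rose and 5 fell, where 6.94% and 4.38% of all loci were called higher and lower, with a median of log2 0.10 over the 76 and -0.0046 over all loci. Of 14 scavenger receptor loci 3 rose and 1 fell (median 0.18), with Msr1 at 1.72-fold, Olr1, a receptor for oxidised LDL, at 1.67-fold and Mertk, which takes up dying cells, lower by log2 -0.79 ± 0.11 (SE; edgeR adjusted p of 0.000309, 0.0258 and 6e-07). Of 22 loci for lipid uptake, storage and efflux 2 rose (median 0.16), namely Lpl, lipoprotein lipase, at 2.08-fold (edgeR adjusted p = 0.0404) and Abca1, a cholesterol exporter, at 1.32-fold (0.00511).

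Of 17 loci of nuclear receptors and transcriptional regulators 3 rose and 2 fell (median -0.18). Rxrg and Klf4 rose 1.53-fold and 1.34-fold, while Pparg fell by log2 -0.59 ± 0.20 (SE, edgeR adjusted p = 0.0465) and the corepressor gene Ncor1 by -0.47 ± 0.16 (0.0361). Of 23 loci of ligands, co-receptors and signalling partners 7 rose and 2 fell (median 0.11), with Tlr2 at 1.49-fold and Cd47, a receptor for thrombospondin, at 1.46-fold, and the kinase gene Yes1 and the exchange factor gene Vav2 lower by -0.71 and -0.37.

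In PBL against PBP 4 of the 76 rose and 4 fell, where 5.42% and 2.82% of all loci were called higher and lower (median 0.03 over the 76). Among those that rose, Tlr2 was at 1.45-fold, Fyn, a Src-family kinase, at 1.33-fold and Rxrg at 1.39-fold. Mertk, Rxra, Vav2 and Itga6 fell by log2 -0.52, -0.32, -0.31 and -0.34. The list medians were -0.04 for scavenger receptors, -0.01 for lipid genes, 0.11 for regulators and 0.09 for partners.

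Between LPS at both injections and LPS at the last one only, few of the lists' loci were called. In LL against PL only Mertk was, at 1.4-fold higher, where 0.0428% of all loci were called. In LBL against PBL Mertk (1.4-fold), Soat1, which esterifies cholesterol (1.42-fold), and Itga6 (1.30-fold) rose and none of the 76 fell, where 0.984% and 0.549% of all loci were called higher and lower. Medians of the 4 lists lay between -0.05 and 0.05 in LL against PL and between -0.04 and 0.24 in LBL against PBL.

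Markers of other cells were read beside the locus, since in pooled cells a different number of cells of a type and a different accessibility per cell cannot be told apart. Of 34 tested marker loci none was called in any comparison of BLZ945 with vehicle by edgeR, DESeq2 or limma-trend, with 5, 3 and 3 at an unadjusted edgeR p under 0.05 in PBP against PP, PBL against PL and LBL against LL. Of all tested loci edgeR called only 0.242%, 0.406% and 0.0855% in the same comparisons. At those shares a list of 34 can be without a call, so nothing is read from its absence. Of 10 endothelial markers 5 carried peaks (Cldn5, Flt1, Pecam1, Kdr and Cdh5), none at 0 in any group. Their summed level was 371 to 396 CPM in PBP and 371 to 419 in PP, 429 to 488 in PBL and 453 to 573 in PL, and 475 to 490 in LBL and 462 to 470 in LL.

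Of 10 border macrophage and bone marrow macrophage markers 8 carried peaks (all but Lyve1 and Pf4), none at 0 in any group, and summed to 303 to 344 CPM in PBP and 274 to 349 in PP, 346 to 369 in PBL and 346 to 401 in PL, and 411 to 443 in LBL and 401 to 405 in LL. Of 8 monocyte markers 4 carried peaks (Ccr2, Plac8, Itga4 and Vcan), none at 0 in any group. They summed to 238 to 260 CPM in PBP and 210 to 231 in PP, 265 to 302 in PBL and 260 to 306 in PL, and 292 to 307 in LBL and 252 to 263 in LL, so this sum was higher without overlap in PBP and LBL. The endothelial and macrophage sums were also higher without overlap in LBL. Of all tested loci, 21.9% were higher without overlap in PBP against PP and 20.3% in LBL against LL. The part of these cells in the Cd36 difference was not tested. For neutrophils, 2 of 8 markers carried peaks (Cxcr2 and S100a9). They summed to 17.3 to 22.1 CPM in the BLZ945 groups and 23.5 to 35.3 CPM in the vehicle groups, lower without overlap in each BLZ945 group. So were 22.8% of all tested loci in PBP against PP, 12.3% in PBL against PL and 21.1% in LBL against LL. In LBL against LL these markers went opposite ways, with Cxcr2 at log2 -1.02 and S100a9 at 0.10, neither called. For neurons and macroglia, 6 of 12 carried peaks. They summed to 631 to 673 CPM in PBP and 592 to 597 in PP, 555 to 590 in PBL and 572 to 684 in PL, and 629 to 677 in LBL and 650 to 700 in LL. The microglial markers summed to 1809 to 1979 CPM in PBP and 1571 to 1658 in PP, 1423 to 1432 in PBL and 1380 to 1523 in PL, and 1593 to 1729 in LBL and 1623 to 1692 in LL. Both of these sums were higher without overlap in PBP, and overlapped in the other pairs.

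With a first LPS injection a few marker loci of macrophages, monocytes and endothelial cells rose. Part of the microglial marker loci fell, as did 2 of neurons and macroglia in PL against PP. The shares of all loci called higher and lower were those given above, 5.42% and 2.82% in PBL against PBP and 6.94% and 4.38% in PL against PP. Of 8 border and bone marrow macrophage loci 1 rose in PBL against PBP (median log2 0.0035) and 2 in PL against PP (median 0.08), and none fell. F13a1 was 1.94-fold and 2.13-fold higher, while Clec12a was at log2 -0.91 and -0.53 and Ms4a7 at -0.06 and -0.82 in the same comparisons, neither called. Of 4 monocyte loci Vcan alone was called in both, at 1.63-fold and 1.82-fold higher, with Ccr2 at log2 -0.45 and 0.07 (medians 0.07 and 0.23). Of 5 endothelial loci 2 rose in each, Flt1 at 1.87-fold and 1.59-fold higher (medians 0.49 and 0.28). Of the 9 microglial loci 7 fell in PBL against PBP and 3 in PL against PP, with Siglech lower by log2 -1.13 and -0.76 (medians -0.54 and -0.34). The highest of them were Csf1r at log2 0.0047 in PBL against PBP and P2ry12 at 0.26 in PL against PP, neither called. Of 6 neuron and macroglia loci none was called in PBL against PBP. In PL against PP 2 fell, Rbfox3 at log2 -0.97 and Snap25 at -0.72 (medians -0.36 and 0.07). The part of other cells in the LPS response of Cd36 was not tested.

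The loci most like Cd36 were found by the correlation of log2 CPM over the 13 libraries, among 10633 loci of at least 0.5 of its mean level. They were Ch25h (Pearson's r 0.93, Spearman's rho 0.90), which encodes cholesterol 25-hydroxylase, Xylt1 (0.92 and 0.86), a xylosyltransferase of proteoglycan assembly, Atp10a (0.91 and 0.92), a lipid flippase, Cep164 (0.91 and 0.93), a centriole protein, and Zfp618 (0.91 and 0.96). All points share libraries and treatments, and the loci were picked for this likeness, so their values are a description.

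Ch25h, summed over 7 peaks, had 78.3 to 91.0 CPM in PBP and 53.0 to 63.8 in PP, 119 to 137 in PBL and 83.5 to 98.6 in PL, and 111 to 120 in LBL and 65.0 to 88.0 in LL. Its BLZ945 groups lay above the vehicle group of each pair without overlap, by 1.44-fold, 1.43-fold and 1.53-fold, against 1.85-fold, 1.79-fold and 2.70-fold at Cd36. Of all tested loci 0.948% were higher without overlap in all 3 pairs. Xylt1 had 124 to 126 CPM in PBP and 77.5 to 88.9 in PP, 146 to 167 in PBL and 89.4 to 114 in PL, and 153 to 166 in LBL and 103 to 115 in LL. Over the pairs of groups, the other 3 loci differed by 1.15-fold to 1.37-fold.

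**Figure D5:**
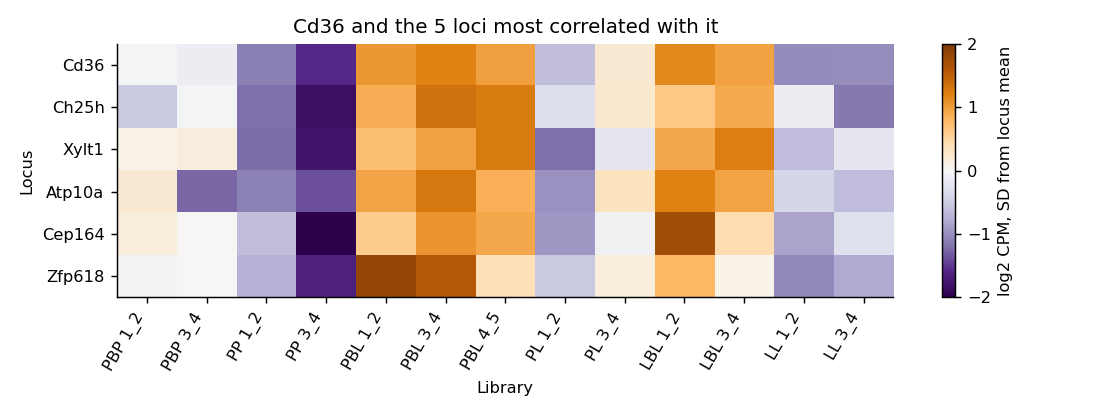
Log2 CPM of the Cd36 locus and of the 5 loci most correlated with it (y axis) in each of the 13 libraries (x axis), as the number of SD from the mean of the locus over libraries (colour). PP 3_4 is the lowest library in all 6 rows, and the PBL and LBL libraries lie above all others in 5 of the 6 rows, all but Zfp618.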

How the data were processed

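ATAC-seq of 13 libraries of sorted mouse microglia was analysed. For 1 common peak set, the authors deposited estimated counts in steps of 0.5, with no normalization. Builds GRCm38 and mm10 are listed, without roles, in the submitters' processing notes, together with ChIPseeker 1.38, HOMER 4.9.1, MACS2 2.1.1, Bowtie2 2.2.6, cutadapt 1.9.1, deepTools 3.3.0, bedtools 2.26, Picard 1.126 and SAMtools 1.7. The counting tool and any shift for the transposase offset are not given in the sources used here. Peak width and distance to the start site, scored in bp, are as deposited, per the file headers.

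Counts were rounded and fitted in R 4.3.3 with edgeR 4.0.16 (filterByExpr at a minimum count of 10, TMM factors, 6 group means over 13 libraries, robust quasi-likelihood F test, two-sided, Benjamini-Hochberg adjustment over all 37516 peaks or 14027 loci, called under 0.05). A locus is the sum of all peaks of a gene symbol. The SE is the absolute log2 fold change over the square root of F. Replicates are pools, so p-values measure the spread between pools. The steps were tested on simulated data. DESeq2 1.42.0 and limma 3.58.1 (limma-trend, prior count 2) were alternatives, as were other scalings, filters, sample sets and locus definitions, an isolation day term and leaving out each library.

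The locus, lists and tests were chosen with earlier results of these data known, including the rise of Cd36 in PBL against PBP. By the rule for names, every Cd36 peak is described, with at most 2 called members per list, direction and comparison, the 5 most correlated loci and the nearest peaks of other genes. The highest list members and the markers named for their levels are outside it. Lists comprised scavenger receptors, lipid genes, regulators, partners of CD36, and markers of 6 cell groups. The values of 1 called list member are not reported here.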

Additional observations from a re-analysis of the deposited data

Results flagged for a closer look

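At the intron peak 7533 bp upstream, every LBL pool lay above every PBL pool (log2 0.245), while every LL pool lay below every PL pool (log2 -0.37). Neither change was called by edgeR (adjusted p of 0.666 and 0.855). Of all tested peaks 16.8% were higher without overlap in LBL against PBL, and 16.4% were lower without overlap in LL against PL. The difference between the arms, at 0.61 ± 0.40 (SE), was not tested. LL and PL were sorted on different instruments, and LBL and PBL on the same one, so instrument and arm cannot be told apart in that difference.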

How the results depend on the processing

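The Cd36 locus kept its direction under each alternative except in LBL against PBL, which was near 0. For PBP over PP it was log2 0.89, with 0.73 to 1.06 without single libraries, 1.08 over peaks within 50 kb and 1.49 with an isolation day term, which sets PBP and PP apart by the difference between the PL pools. For PBL over PL it was 0.84 (0.58 to 1.18 without single libraries), and for LBL over LL 1.43 (1.37 to 1.5, and 1.52 within 50 kb). For PL over PP it was 0.84, and 0.49 to 1.10 without single libraries, and 0.83 under DESeq2. For LL over PL it was -0.61 (-0.87 to -0.26, called without PL 1_2, adjusted p = 0.011). For PBL over PBP it was 0.79 (0.74 to 0.84, called each time). Called Cd36 peaks numbered 0 to 1 without single libraries in PL against PP and in LL against PL, 1 without each library in PBL against PBP, and 0 there under DESeq2. The cause of these changes was not tested. A lone pool left in a group was assumed to vary like the others.

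With the replicate number as a block the locus was at 0.84 for PL over PP (edgeR adjusted p = 0.0116) and 0.83 for PBL over PBP (0.000138), and no call of the locus or its peaks changed. Deviations of the first pools from their group means had correlations of -0.017 to 0.16 over 15 pairs of groups, with 1 of them, PBL and PL, over 0.1. With 2 pools in most groups, these values cannot show whether pools of the same number share more than the number. Of the 76 loci of the 4 lists, 20 were called in PL against PP by edgeR, 7 by DESeq2 and 25 by limma-trend, 8, 3 and 8 in PBL against PBP, 3, 1 and 2 in LBL against PBL, and 1, 0 and 0 in LL against PL. No promoter-only sum could be had, as no Cd36 peak is annotated so. Counts of all called peaks moved widely: 2799 in PL against PP (681 to 5109 over left-out libraries, 808 with DESeq2), 3737 in PBL against PBP (1732 to 3453, and 1213), 24 in LL against PL (5 to 304, and 0), 713 in LBL against PBL (88 to 598, and 17), 60 in PBP against PP (10 to 29, and 9; 815 with the day term), 31 in PBL against PL (2 to 1010, and 0) and 19 in LBL against LL (1 to 8, and 1). With 2 pools in most groups and 7 to 12.5 deposited counts at the nearer peak in PP, small changes were not detectable at this depth.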

Other observations

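The nearest peaks of other genes lay far from the Cd36 peaks. On one side, 156531 bp away, was an intron peak of Gnat3, which encodes the taste G protein gustducin (chr5:18014131-18014606). Its mean level was 9.26 CPM in PBP and 9.25 in PP, 14.4 in PBL and 6.75 in PL, and 12.4 in LBL and 5.01 in LL. The PBL and LBL pools lay above the PL and LL pools without overlap, but the peak was not called (log2 1.12 ± 0.31 SE and 1.28 ± 0.36 SE, edgeR adjusted p = 0.108 and 0.171). Of all tested peaks 12.3% were higher without overlap in PBL against PL and 20.4% in LBL against LL. On the other side, 1223084 bp away, the promoter peak of Hgf, a growth factor gene (chr5:16553145-16553606), had 11.5 CPM in PBP and 10.2 in PP, 12.7 in PBL and 14.6 in PL, and 16.2 in LBL and 13.1 in LL, and was not called in these comparisons (edgeR adjusted p of 0.80 to 0.934).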
